A study of Homo sapiens with 2 samples.

Results

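Of the 562 regions on the deposited list, 553 lay on chromosomes 1 to 22 and X, and 192 of these had a midpoint more than 1 kb from every annotated transcription start site (TSS) of a protein-coding gene. They made up 34.7% of the 553 regions (95% Wilson interval 30.9% to 38.8%), and the other 361 regions lay at protein-coding promoters. Each of the 192 was placed in the first class it met. There were 93 regions with a tRNA gene, 16 with another small RNA gene, 28 with a midpoint within 1 kb of the TSS of a long noncoding RNA (lncRNA), 23 inside a gene body and 32 in distal intergenic sequence.

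The list compares R-loop CUT&Tag libraries of the uveal melanoma cell line OMM2.3. The shCtrl library came from cells with a control hairpin, and the shA3B library from cells in which APOBEC3B, a cytidine deaminase, was knocked down. Both groups had been transfected with V5-tagged RNASEH1_D210N, an RNase H1 that binds RNA:DNA hybrids without cutting them, and a V5 antibody brought the transposase to the DNA it occupied. Hairpins were delivered by lentivirus with puromycin selection, and the tagged protein was driven from a plasmid, so the maps show where an introduced protein bound in selected cells. There was 1 library per group. Each line of the list holds a chromosome, a start and an end, without read counts, score, strand or direction. A listed region therefore differed between the libraries by the authors' criteria, and the library with the higher signal is not recorded in the list. The paper describes genes whose R-loop peaks were depleted by the knockdown, but the list does not mark which regions these are. No test between the conditions was possible and the depth is unknown. Intervals given with shares and medians describe the listed regions or annotated genes only and treat neighbours as independent, which they are not. The list carries no expression values, so the cell line label could not be checked against melanocyte genes.

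An R-loop forms when nascent RNA pairs again with its template and leaves the other DNA strand single. Short genes transcribed at a very high rate are well-known places for it. RNA polymerase III makes tRNAs, 5S rRNA, U6 snRNA, 7SK, 7SL, Y RNAs and vault RNAs. For tRNA genes the polymerase is recruited through an A box and a B box inside the gene, which TFIIIC reads, whereas U6, 7SK and Y RNA genes use a TATA box and a proximal sequence element upstream of the gene. The U1, U2, U4 and U5 snRNAs of the spliceosome are made by RNA polymerase II from promoters with a proximal sequence element and no TATA box.

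Sequences of 7 tRNA genes are shown because tRNA regions form the largest class. The 7 are the genes nearest to the midpoint in 4 of the 5 widest tRNA regions and in the 3 tRNA regions that stand first in the list. The letters are read from GRCh38, 5′ to 3′ along the gene, and the capitals mark the B box. It was taken as GTTCGANNC with at most 1 of its first 6 letters changed.
TRY-GTA5-5, chr14:20683273-20683361, plus strand: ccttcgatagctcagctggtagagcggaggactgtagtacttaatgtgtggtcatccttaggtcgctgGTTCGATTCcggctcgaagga
TRT-AGT5-1, chr17:8139452-8139525, minus strand: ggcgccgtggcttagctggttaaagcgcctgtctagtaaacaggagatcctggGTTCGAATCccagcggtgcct
TRP-TGG3-1, chr5:181188854-181188925, minus strand: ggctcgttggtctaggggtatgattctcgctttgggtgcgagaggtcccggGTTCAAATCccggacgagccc
TRG-GCC2-6, chr17:8125746-8125816, plus strand: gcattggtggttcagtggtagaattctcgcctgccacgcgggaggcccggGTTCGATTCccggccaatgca
TRX-CAT1-6, chr6:27592821-27592892, minus strand: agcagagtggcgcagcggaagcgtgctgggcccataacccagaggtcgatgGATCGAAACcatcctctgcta
TRK-CTT2-4, chr6:26556546-26556618, plus strand: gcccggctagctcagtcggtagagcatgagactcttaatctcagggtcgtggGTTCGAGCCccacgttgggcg
TRA-AGC11-1, chr6:26571864-26571936, minus strand: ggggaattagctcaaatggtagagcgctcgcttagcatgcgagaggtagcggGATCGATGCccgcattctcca

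Upstream sequences of 6 small RNA genes are shown next, each from 60 bases before the annotated gene start to 10 bases into the gene, on the strand of the gene in GRCh38. The first 4 are made by RNA polymerase III, and capitals mark the letters TATA found 40 to 15 bases before the start. The last pair are snRNA genes of RNA polymerase II, in which these letters were not in that window.
RNU6-8, chr14:32203260-32203329, minus strand: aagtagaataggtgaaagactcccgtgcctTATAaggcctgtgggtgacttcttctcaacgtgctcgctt
RNY3, chr7:148983695-148983764, plus strand: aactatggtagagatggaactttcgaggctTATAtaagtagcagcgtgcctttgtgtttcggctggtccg
VTRNA1-1, chr5:140711215-140711284, plus strand: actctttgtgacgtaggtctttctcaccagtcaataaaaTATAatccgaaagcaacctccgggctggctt
VTRNA1-2, chr5:140718865-140718934, plus strand: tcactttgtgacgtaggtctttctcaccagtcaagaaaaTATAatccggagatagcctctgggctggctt
RNU4-2, chr12:120291894-120291963, minus strand: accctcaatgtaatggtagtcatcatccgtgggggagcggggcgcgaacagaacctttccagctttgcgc
RNU5B-1, chr15:65304617-65304686, plus strand: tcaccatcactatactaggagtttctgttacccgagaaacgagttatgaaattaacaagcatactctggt

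The 192 regions were spread unevenly over the chromosomes. Chromosome 6 held 47 of them, all between 26 and 29 Mb, in the stretch that carries the major cluster of tRNA and histone genes. Of these 47, 35 were tRNA regions, 7 distal intergenic, 4 lncRNA and 1 gene body. Chromosome 17 held 32 regions, with 14 at tRNA genes, 8 in gene bodies, 5 at lncRNA genes, 3 at other small RNA genes and 2 in distal sequence. Chromosome 1 followed with 22 regions and chromosome 16 with 14. No region away from promoters was listed on chromosomes 10, 20 and X, although these carried 15, 9 and 11 promoter regions. On chromosome 2 the split was 1 region away against 32 at promoters, and on chromosome 19 it was 2 against 15.

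**Figure D1:**
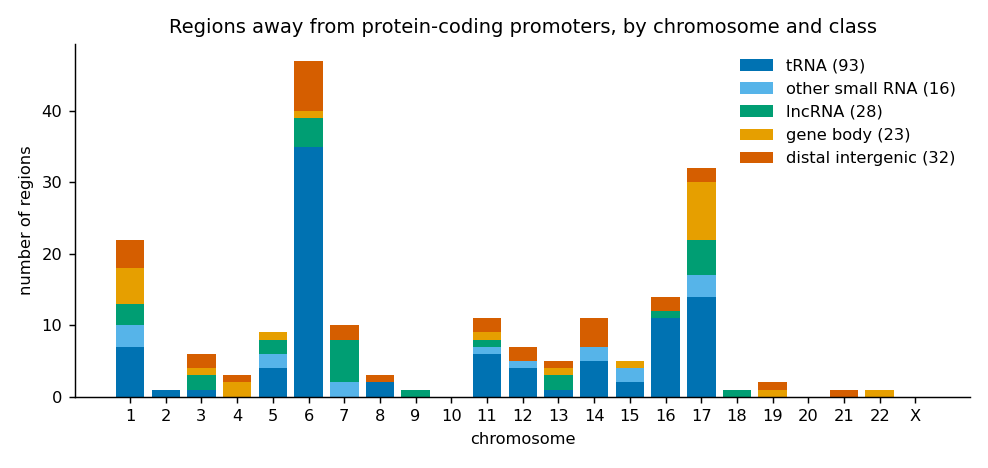
Bars give the number of listed regions away from protein-coding promoters on each chromosome (vertical axis, count), and colours give the 5 classes with their totals. Chromosome 6 (47 regions) and chromosome 17 (32 regions) stand highest, and chromosomes 10, 20 and X hold none.

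The distance of 1 kb that defines these regions fell in a sparse part of the list. The 3 promoter regions nearest to it had midpoints 908 bp from a TSS of GSTA4 (chr6:52996050-52996375), 961 bp from ERRFI1 (chr1:8026979-8027561) and 988 bp from NFIB (chr9:14314925-14316216). The first region beyond it lay in the body of TVP23C and TVP23C-CDRT4, 1055 bp from a TSS (chr17:15502305-15502801). It was followed by a tRNA region 1218 bp from ANG (chr14:20681141-20684778) and a lncRNA region 1244 bp from ZIC2 (chr13:99980385-99980695). The median distance to a protein-coding TSS was 17490.5 bp over the 192 regions (interval 15508 to 22284), and the farthest lay 680758 bp away. More than 10 kb separated 137 of the 192 from any such TSS, and more than 100 kb separated 19.

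tRNA regions held 127 of the 414 tRNA genes with a B box (30.7%, interval 26.4% to 35.3%). A further 27 of the 414 (6.52%) lay in promoter regions and are not members. Most tRNA regions were single-gene sites. There were 64 with 1 tRNA gene, 22 with 2, 6 with 3 and 1 with 4. The region with 4 was also the widest of the class, 5176 bp on the short arm of chromosome 17 (chr17:8185935-8191110), and held TRI-AAT5-5, TRS-GCT4-3, TRT-AGT1-1 and TRW-CCA3-3, genes for isoleucine, serine, threonine and tryptophan tRNAs. The next widest were 3638 bp on chromosome 14 (chr14:20681141-20684778, with TRP-TGG3-2, TRT-TGT5-1 and TRY-GTA5-5), 2982 bp near PER1 (chr17:8138091-8141072, with TRS-CGA1-1 and TRT-AGT5-1), 2752 bp near TRIM7 (chr5:181187441-181190192, with TRL-AAG2-1, TRP-TGG3-1 and TRV-AAC2-1) and 2661 bp near HES7 (chr17:8125201-8127861, with TRG-GCC2-6). The widest and the next widest region each reached over a protein-coding TSS. Their midpoints lay 1658 bp from a TSS of BORCS6 and 1218 bp from a TSS of ANG. The narrowest region of the class measured 199 bp.

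The share of genes in a region differed widely by amino acid. Initiator methionine tRNA, which starts translation and was read from the symbol TRX-CAT, had 6 of its 8 genes in a region away from promoters and 1 more in a promoter region. Elongator methionine tRNA, which reads the same codon inside proteins, had 1 of 11. Threonine followed with 13 of 20 genes (65.0%, interval 43.3% to 81.9%), lysine with 15 of 24 (62.5%, 42.7% to 78.8%), proline with 12 of 20 (38.7% to 78.1%) and tryptophan with 4 of 7. The intervals of these overlapped, so their order is not resolved. At the other end, none of the 20 asparagine genes lay in any region (upper bound 16.1%), nor did the 2 selenocysteine genes (read from the symbol TRU-TCA). Cysteine had 3 of 28 in a region away from promoters and 3 in promoter regions, and histidine had 1 of 9. Among single anticodons, 9 of 11 Lys-CTT genes, 5 of 6 Thr-TGT genes, 3 of 4 Ser-TGA genes and all 3 Leu-TAG genes lay in a region away from promoters, and 1 more Lys-CTT gene lay in a promoter region. In all, 42 of 48 anticodons had at least 1 gene in a region away from promoters.

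**Figure D2:**
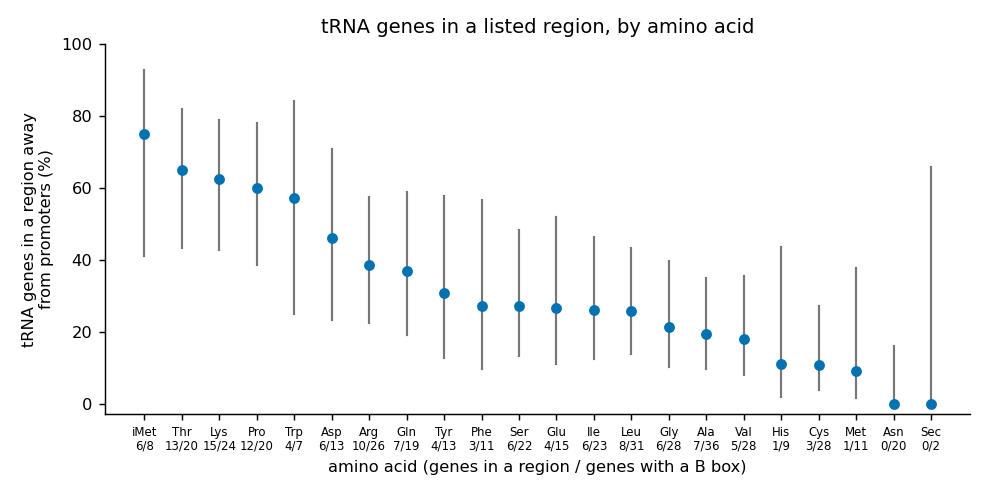
Points give the percent of tRNA genes with a B box that lie in a region away from promoters, by amino acid (horizontal axis, with the genes in a region over all genes), and bars are 95% Wilson intervals. Initiator methionine (iMet, 6/8), threonine, lysine and proline stand highest, and asparagine (0/20) and selenocysteine (Sec, 0/2) are at 0.

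Repeated sequence around tRNA genes differed between those in a region and the rest. For each tRNA gene with 500 bases on each side, the share of 31-base words that occur nowhere else in the assembly was taken as a measure of uniqueness. The median was 94.5% for the 127 genes in a region away from promoters (interval 94.0% to 95.5%) and 83.0% for the 260 genes in no region (78.7% to 87.1%). Under 50% of the words were unique at 80 of the 414 genes, and none of these 80 lay in any region, away or at a promoter. Among the other 334 genes, 127 lay in a region away from promoters (38.0%, interval 32.98% to 43.3%). Of the 20 asparagine genes 11 were among the 80, and 0 of the remaining 9 had a region. Lysine, threonine, proline, tryptophan and initiator methionine had no gene among the 80, whereas elongator methionine had 5 of its 11. Other amino acids did not follow this order. Cysteine had 1 of its 28 genes among the 80, and phenylalanine, serine, tyrosine and selenocysteine had none, with 3 of 11, 6 of 22, 4 of 13 and 0 of 2 genes in a region away from promoters. The authors' filter removed reads with a mapping quality below 2, and its part in these shares was not tested.

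Nearness to a protein-coding gene was compared over all listed regions, promoter regions included, since a region near a TSS tends to be a promoter region. Of the 53 tRNA genes within 1 kb of a protein-coding TSS, 29 lay in a region of either kind (54.7%, interval 41.5% to 67.3%), against 125 of the 361 farther away (34.6%, 29.9% to 39.7%), and the intervals did not overlap. The 80 genes with under 50% unique words, none of them in a region, were not set apart here. A tRNA gene near a TSS can also be counted through a region at the promoter of its neighbour. The next shares count regions away from promoters alone. Genes whose letters occur in no other tRNA gene had a region in 61 of 196 cases (31.1%), and genes with identical copies in 66 of 218 (30.3%). Genes with the letters GTTCGANNC had a region in 79 of 269 cases (29.4%), and those with 1 letter of the B box changed in 48 of 145 (33.1%). In the cluster on chromosome 6, 38 of 137 genes had a region (27.7%), against 89 of 277 elsewhere (32.1%). The intervals overlapped in these last 3 pairs. Of the 29 listed tRNA genes without a B box, 3 had a region (10.3%, interval 3.58% to 26.4%).

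Midpoints scattered on both sides of the tRNA gene, which each region of the class overlaps by definition. In the 62 regions with a single tRNA gene with a B box, the midpoint of the region lay at a median of 54.5 bp downstream of the gene start, with quartiles from 102 bp upstream (-102) to 211 bp downstream and a range from -685 to 810 bp. It fell inside the gene in 9 of the 62, and the whole gene lay inside the region in all 62. It was downstream of the start in 36 of 62 regions (58.1%, interval 45.7% to 69.5%), so no side was favoured beyond that interval. The median region began 413 bases before the gene (231 to 544) and ended 312.5 bases after it (243 to 482). The lists of small RNA genes held 1 miRNA inside a region away from promoters, MIR4521, which lies in the region with 4 tRNA genes.

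Regions without a tRNA gene often had one close by. Of the 99 members outside the tRNA class, 26 lay within 5 kb of a tRNA gene and 20 within 1 kb. This held for 15 of 32 distal intergenic regions (46.9%, interval 30.9% to 63.6%), 6 of 23 gene body regions (26.1%), 5 of 28 lncRNA regions (17.9%) and none of the 16 other small RNA regions. Of the promoter regions, 29 of 361 (8.03%, 5.65% to 11.3%) either held or lay within 5 kb of a tRNA gene, and the interval did not meet that of the distal regions. In 19 of the 26 the nearest tRNA gene itself lay in another listed region. The closest were a distal region 24 bp from TRV-AAC1-5 (chr6:27752628-27753376), a region in HES7 75 bp from TRR-TCT2-1 (chr17:8121087-8121364) and a region at the lncRNA ENSG00000284607 170 bp from TRY-GTA1-1 (chr6:26569118-26569595). When regions within 1 kb of each other were merged first, 18 distal intergenic regions remained in place of 32.

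**Figure D3:**
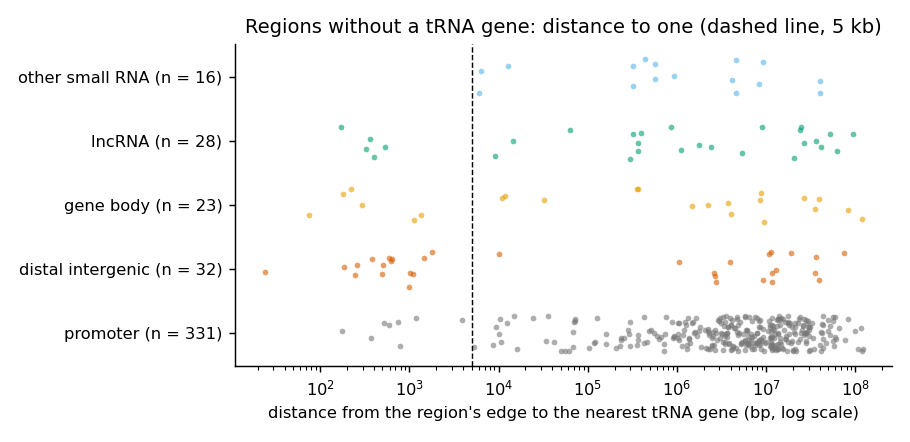
Each point is a listed region that holds no tRNA gene, placed by the distance from its edge to the nearest tRNA gene (horizontal axis, bp on a log scale), with a row for each class and for the promoter regions. Promoter regions on chromosomes without a tRNA gene are not drawn. Left of the dashed line at 5 kb lie 15 of 32 distal intergenic, 6 of 23 gene body and 5 of 28 lncRNA regions, and none of the 16 other small RNA regions.

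A few sites resembled tRNA genes by their letters alone. The letters GTTCGANNC stood in the central 300 bases of 32 of 93 tRNA regions, and in 3 of the 55 gene body and distal regions, against 291 of 35116 RefSeq promoters of 300 bases (0.829%). Of these 3 places, 2 are printed on the plus strand of GRCh38 with the match in capitals (in the distal region the match is on the reverse strand). The distal region lay 498 bp from TRT-TGT4-1 and the gene body region 294 bp from TRL-CAA6-1, whereas the third place had no tRNA gene within 5 kb. No member outside the tRNA class held any of the 10 tRNA pseudogenes of RefSeq that were found by name. A match of letters does not show that TFIIIC binds there.
Distal intergenic region, chr14:20630415-20630457: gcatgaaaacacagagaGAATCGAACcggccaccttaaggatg
Gene body region, chr1:161612752-161612794: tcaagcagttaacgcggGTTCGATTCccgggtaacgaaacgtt

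The 16 regions of the other small RNA class held 10 of the 1884 annotated snRNA genes, 8 of 2204 miscellaneous RNA genes and 2 of 939 snoRNA genes. None of the 49 scaRNA genes and none of the 47 rRNA genes was in a region away from promoters. snRNA and miscellaneous RNA entries include many pseudogene copies, so the shares are set by the annotation.

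Genes of RNA polymerase III, tRNA genes aside, were taken from a list of 20, of which 19 are annotated. A region away from promoters overlapped 6 of the 19. RN7SL2 encodes the 7SL RNA of the signal recognition particle and had a region of 1627 bp (chr14:49861584-49863210). RNY3 and RNY1 encode Y RNAs, which bind the Ro60 protein, and had regions of 357 bp (chr7:148983653-148984009) and 362 bp (chr7:148986975-148987336). VTRNA1-1 and VTRNA1-2 encode vault RNAs and had regions of 648 bp (chr5:140710896-140711543) and 965 bp (chr5:140718463-140719427). RNU6-8 encodes U6 snRNA, at the catalytic centre of the spliceosome, and had a region of 1563 bp (chr14:32202179-32203741). RNU6-7, a further U6 gene, ended 28 bp outside that region. A further 4 genes of the list, RN7SK, RN7SL1, RMRP and RNU6-2, were overlapped by promoter regions. No region overlapped RPPH1, RNY4, VTRNA1-3, VTRNA2-1, RNU6-1, RNU6-9, RNU6ATAC or BCYRN1, so members of the Y RNA, vault RNA and U6 families fell on both sides.

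RNA polymerase II snRNA genes showed a similar split, with 6 of 16 overlapped by a region away from promoters and 4 by a promoter region. RNU4-2 and RNU4-1, genes for U4 snRNA, shared a region of 2622 bp (chr12:120290712-120293333). The U5 genes RNU5E-1 (2236 bp, chr1:11907772-11910007), RNU5B-1 (1041 bp, chr15:65304602-65305642) and RNU5A-1 (722 bp, chr15:65295968-65296689) each had a region, whereas RNU5D-1 and RNU5F-1 had none. Of the U1 genes, RNU1-2 was overlapped in part by a region (1057 bp, chr1:16896046-16897102), and RNU1-1, RNU1-3 and RNU1-4 had none. The region at RNU1-2 began inside the gene, without its start, and had its midpoint 594 bp downstream of that start. A variant U1 gene, RNVU1-29, had a region of 1398 bp (chr1:146376246-146377643). A copy annotated as U2 was touched by the edge of a 527 bp region (chr17:43251307-43251833), and RNU2-1 lay 17330 bp from the nearest region. Repeated sequence was not measured at the snRNA genes without a region, so its part in their absence was not tested. The 4 at promoter regions were RNU4ATAC, RNU11, RNU12 and RNU7-1, which serve the minor spliceosome and histone pre-mRNA processing.

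Both snoRNA genes with a region are transcribed from their own promoters, unlike most human snoRNAs, which are cut from introns of host genes. SNORD118 encodes U8, needed for ribosomal RNA processing, and had a region of 835 bp in TMEM107, with its midpoint in an exon of that gene (chr17:8172882-8173716). SNORD3B-2 encodes U3 and had a region of 552 bp (chr17:19063371-19063922). Repeated sequence was common in the class, with a median of 83.0% unique words (interval 43.3% to 91.0%) and 4 of 16 regions below 50%. These 4 were SNORD3B-2 (13.2%), the U2 copy (15.3%), RNVU1-29 (37.8%) and RNU1-2 (43.3%).

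The letters TATA stood 40 to 15 bases before the start in 4 of the 17 named genes in the class (23.5%, interval 9.56% to 47.3%), against 6.24% of 35116 RefSeq promoters at the same place. They were RNU6-8 and RNY3, where the letters began 30 bases before the start (-30), and VTRNA1-1 and VTRNA1-2, where they began 21 bases before it (-21). All 4 are RNA polymerase III genes. The letters were not in this window for RNY1 and RN7SL2, nor for any U1, U2, U4, U5 or snoRNA gene in the class.

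NEAT1, the lncRNA that builds paraspeckles, supplied the widest region of the small RNA class, because 3 short unnamed RNA entries are annotated inside it. The region covered 4872 bp (chr11:65420907-65425778) with its midpoint 197 bp from a NEAT1 TSS, in an exon. All of its 31-base words were unique. MALAT1, the nuclear speckle lncRNA that is NEAT1's neighbour, had a narrow region of 223 bp (chr11:65498920-65499142), 7 bp from an annotated transcript start and inside an exon. They were the 2 genes overlapped out of a list of 29 nuclear and snoRNA-host lncRNAs. None of the snoRNA hosts, GAS5, the SNHG genes, ZFAS1, EPB41L4A-AS1 and DANCR, had a region away from promoters, and the nearest region to any of the 27 genes without one was a promoter region 6194 bp from SNHG5. Among all 18756 annotated lncRNA genes, 34 had a TSS within 1 kb of the midpoint of a region of the lncRNA class. That count uses the TSS and the lncRNA class alone, whereas the list of 29 was scored by overlap of the gene with a region of any class. NEAT1, in the small RNA class, is therefore not among the 34, and the measures are not alike. With a share so low, the absence of the snoRNA hosts says nothing particular about them.

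The lncRNA class had 28 regions within 1 kb of a TSS of 34 lncRNA genes, of 18756 annotated. Symbols were assigned to 15 of the 34. The 5 widest regions lay at LINC03048 (2695 bp, chr17:81384913-81387607), LINC02026 (2017 bp, chr3:194003021-194005037), MEF2C-AS2 (1858 bp, chr5:88674229-88676086), a pair of lncRNA genes on opposite strands, ENSG00000251665 and ENSG00000247011 (1852 bp, chr17:50943438-50945289), and MIR3142HG, the host gene of miR-3142 and miR-146a (1462 bp, chr5:160466955-160468416). In 7 of the 28 regions the TSSs of lncRNA genes on both strands were within 1 kb of the midpoint. Other regions lay at HCG11, LINC00240, LINC00324, LINC00426, LINC00511, GHET1 and the pair LINC00667 and LINC00526. GHET1 lay beside RNY1, so that RNY3, RNY1 and GHET1 formed a group of 3 regions in 4264 bp (chr7:148983653-148987916).

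SAMMSON, a lncRNA of the melanocyte lineage that lies next to MITF, had a region of 872 bp (chr3:69999483-70000354). Its midpoint lay 72 bp from a SAMMSON TSS and 63089 bp from the nearest TSS of MITF, the transcription factor that specifies melanocytes. The gene was singled out after its place had been seen. No region away from promoters overlapped any of 18 melanocyte lineage genes, among them PMEL, TYR, TYRP1, DCT and SOX10, and promoter regions overlapped 2, MLANA and GPR143. Over all 19970 protein-coding genes the shares were 0.26% and 2.1%, so with 18 genes a count of 0 away from promoters says nothing particular about the lineage. The region at SAMMSON was the closest to MITF, 31147 bp past its 3′ end.

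Gene body regions had a median width of 564 bp (interval 448 to 690), an interval that overlapped those of the lncRNA (489 to 1043), distal (530 to 964) and other small RNA regions (552 to 1627). The midpoint lay in an intron in 18 of 23 and in an exon in 5, and 18 had a protein-coding host. The 5 widest lay in an intron of PSG9, a pregnancy-specific glycoprotein gene (2091 bp, chr19:43220066-43222156, 43.5% unique words), in the gamma protocadherin cluster, where 22 genes share their last exons (1889 bp, chr5:141494816-141496704), in LEMD1 with the lncRNA BLACAT1 (1749 bp, chr1:205439776-205441524), in an intron of the lysosomal sulfatase gene ARSG (1042 bp, chr17:68383308-68384349) and in an intron of the bromodomain gene CECR2 (847 bp, chr22:17528851-17529697). A further ARSG region of 565 bp lay at lower coordinates (chr17:68377986-68378550). HES7, a repressor of the segmentation clock, and TMEM107, a protein of the ciliary transition zone, held 2 regions each on the short arm of chromosome 17. The HES7 regions lay 75 bp and 1128 bp from TRR-TCT2-1, and the TMEM107 regions lay next to that of SNORD118.

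Distal intergenic regions had a median width of 737.5 bp (530 to 964) and lay at a median of 23536.5 bp from a protein-coding TSS (13644 to 54927). The widest, 1854 bp on chromosome 16 (chr16:3153993-3155846), lay 1021 bp from TRR-CCT3-1 in a group of tRNA regions. The next 4 had no tRNA gene within 5 kb. They lay 12172 bp from IFI6, an interferon-induced gene (1525 bp, chr1:27659244-27660768), 208730 bp from ZNF722 (1449 bp, chr7:63789395-63790843), 72789 bp from LRRC74A (1391 bp, chr14:76898590-76899980) and 34991 bp from LYST, a regulator of lysosome-related organelles (1387 bp, chr1:235918022-235919408).

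Repeated sequence was measured over whole regions as well. Of the 192 regions, 12 had under 50% unique words (6.25%, interval 3.61% to 10.6%), against 5 of 361 promoter regions (1.39%, 0.593% to 3.20%). None of the 93 tRNA regions was among them. The lowest was a distal region of 220 bp on chromosome 4 (chr4:49709341-49709560), with 4.74% unique words and a GC content of 23.6%, 680758 bp from the nearest protein-coding TSS. It repeated a unit of 42 bases, since 97.8% of its bases equalled the base 42 positions further on, against a median of 31.7% over unit lengths from 2 to 80. Its central 100 bases are shown, since the tandem unit can be read from them.
Distal intergenic region, chr4:49709400-49709499, plus strand: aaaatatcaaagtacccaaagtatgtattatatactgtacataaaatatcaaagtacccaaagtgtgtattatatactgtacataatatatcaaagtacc

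Width and base composition set the classes apart. tRNA regions had a median width of 1218 bp (interval 973 to 1406), which overlapped that of promoter regions (1070 bp, 1004 to 1132), whereas gene body regions (448 to 690) and distal regions (530 to 964) were narrower than both without overlap of the intervals. Median GC content was 63.9% at promoter regions (62.8% to 64.9%). It was 49.5% in tRNA regions (48.4% to 52.6%), 50.7% in other small RNA regions, 51.6% in distal regions (48.7% to 53.7%), 54.6% in gene bodies (48.8% to 57.6%) and 59.2% at lncRNA genes (55.2% to 62.6%). Over all 192 regions it was 52.0% (50.7% to 53.1%), below the promoter interval.

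CpG dinucleotides, which are lost from most of the genome and kept in CpG islands, divided the members further. The observed over expected CpG ratio had a median of 0.79 at promoter regions (interval 0.78 to 0.80). It reached 0.68 in tRNA regions (0.64 to 0.72), 0.65 at lncRNA genes (0.51 to 0.78) and 0.61 in other small RNA regions (0.46 to 0.78). Gene body regions had 0.34 (0.25 to 0.55) and distal regions 0.36 (0.28 to 0.46). tRNA regions thus had a CpG ratio above that of gene body and distal regions at a GC content that was similar or lower.

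**Figure D4:**
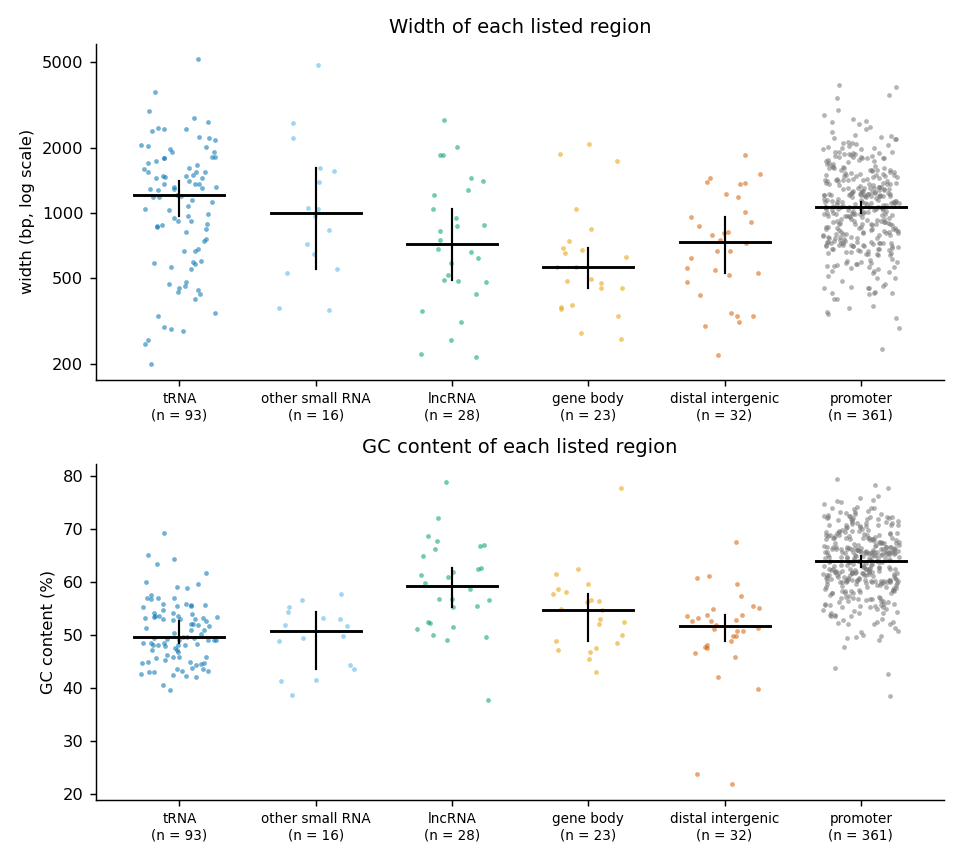
The upper panel gives the width of each listed region (bp, log scale) and the lower panel its GC content (%), by class with the promoter regions on the right. Horizontal bars are medians and vertical bars their 95% intervals, with tRNA regions at 1218 bp and 49.5% GC and promoter regions at 1070 bp and 63.9% GC.

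Motifs were counted in the 300 bases around each midpoint on both strands. The G-quadruplex pattern, which can form on a displaced G-rich strand, was present in 25 of 192 regions (13.0%, interval 8.98% to 18.5%), in 123 of 361 promoter regions (34.1%, 29.4% to 39.1%) and in 8778 of the 35116 RefSeq promoters. The AP-1 letters TGANTCA stood in 17 of 192 regions (8.85%, 5.60% to 13.7%), against 3.05% of promoter regions (1.71% to 5.37%) and 7.71% of RefSeq promoters (7.43% to 7.99%). The intervals away from and at promoter regions did not meet, and that away from promoters held the RefSeq share. In the 55 gene body and distal regions alone the letters stood in 5 (9.09%, 3.95% to 19.6%), and this interval overlapped that of the promoter regions. The NF-Y letters CCAAT stood in 71 of 192 regions (37.0%, lower bound 30.5%), against 25.5% of promoter regions (upper bound 30.2%) and 34.6% of RefSeq promoters. For the E-box CACGTG the shares were 5.21% away from promoters, 7.20% at promoter regions and 7.26% in RefSeq promoters. For CATGTG, an E-box that MITF can read, they were 7.81%, 5.54% and 11.1%. Neither E-box differed between regions away from and at promoters beyond the intervals. Median GC content was 52.0% away from promoters and 63.9% at promoter regions, and the part of base composition in these motif shares was not tested.

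Members stood in groups along the genome. Of the 192 regions, 78 lay in 16 groups of 3 or more with less than 20 kb between neighbours, 19 groups held 2 regions, and 76 regions were alone. tRNA regions made up 54 of the 78. There were 2 groups of 9 regions. The first spanned 52224 bp on chromosome 6 (chr6:26520484-26572707), and its 9 regions held 8 of the 10 tRNA genes in the span, with the lncRNA genes HCG11 and ENSG00000284607. The other tRNA genes of this span, TRR-ACG1-2 and TRV-CAC1-6, lay in a promoter region. The second spanned 42945 bp on chromosome 16 (chr16:3149322-3192266), and its regions held 9 of 14 tRNA genes.

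The span of a group runs between the outer edges of its regions, so the shares of its tRNA genes that lie in a region are raised by construction. The 3 groups on the short arm of chromosome 17 (chr17:8120062-8141072, chr17:8172882-8191110 and chr17:8219962-8227288) held 5 of 5, 4 of 4 and 7 of 7 tRNA genes. A group on chromosome 5 (chr5:181187441-181218819) held 7 of 7, 1 on chromosome 14 (chr14:20613053-20631303) 4 of 4, and 1 on chromosome 11 (chr11:59549949-59566462) 7 of 8. On chromosome 6 the remaining groups held 6 of 10 (chr6:26310109-26342268), 1 of 2 (chr6:27162246-27178446), 2 of 3 (chr6:27280128-27296656), 3 of 3 (chr6:27503154-27519843), 3 of 3 (chr6:27541639-27548815) and 5 of 7 tRNA genes (chr6:27650479-27688575). The group of RNY3, RNY1 and GHET1 was the only 1 of the 16 without a tRNA gene.

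The place of a region in the list also moved with its class, although what orders the lines is not documented. The median line number was 71.5 for other small RNA regions (interval 39 to 183) and 109 for tRNA regions (76 to 154), against 292.5 for lncRNA (206 to 383), 301.5 for distal (187 to 355), 325 for gene body (251 to 437) and 321 for promoter regions (297 to 354). The first 100 lines held 10 of the 16 other small RNA regions and 44 of the 93 tRNA regions, 5 lncRNA regions, 3 distal regions and no gene body region. The earliest small RNA regions were those of RNY3 on line 8, SNORD118 on line 21 and NEAT1 on line 25. The intervals of the tRNA and other small RNA classes did not meet those of lncRNA, distal, gene body and promoter regions.

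**Figure D5:**
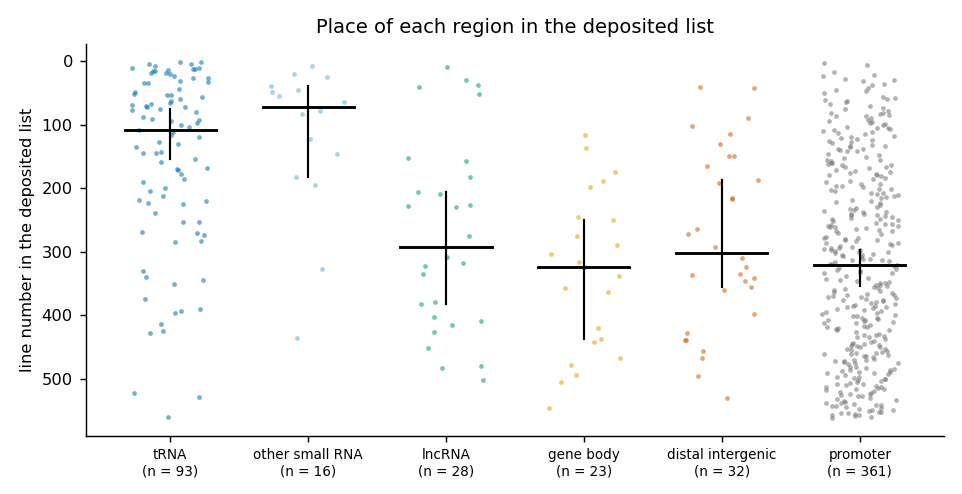
Each point is a listed region, placed by its line number in the deposited list (vertical axis, first line at the top) and by class, with the median (horizontal bar) and its 95% interval (vertical bar). Other small RNA regions (median 71.5) and tRNA regions (median 109) stand nearer the top than the other classes and the promoter regions (median 321).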

How the data were processed

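R-loop CUT&Tag was performed on 1 shCtrl and 1 shA3B library of OMM2.3 cells. Per the methods and the submitters' processing notes, the authors checked reads with FastQC 0.11.9, trimmed them with cutadapt 4.1, aligned them to GRCh38 with Bowtie2 2.2.5, removed duplicates with Picard 2.27.3, filtered on mapping quality 2 with SAMtools 1.15.1, called peaks with SEACR 1.3 and compared them with edgeR. The thresholds are not given in the sources used here. The deposited values are region starts and ends in bases, with no read count or score, so no depth or counting error can be given.

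Starts were converted to 1-based positions. Regions were annotated with GENCODE release 44. tRNA genes and promoters came from RefSeq (GRCh38.p14), matched by symbol and position. Classes were assigned in the order tRNA, other small RNA (overlap of at least 1 base), lncRNA, gene body, distal. Shares carry 95% Wilson intervals and medians 95% intervals from binomial ranks. No p-value was computed, since 1 library per group and a single list allow no test. Members, lists and naming rules (the 5 widest regions per class, list genes with a region, groups, regions at the threshold) were chosen with earlier results of these data known. Uniqueness around tRNA genes, the distance to tRNA genes and the tandem unit were added after seeing the list. Functions were tested on simulated data. Python 3.11.15, numpy 2.4.6, scipy 1.17.1, pysam 0.24.0 and numba 0.67.0 were used. The 9 regions on other contigs were left out. A few sequences and 1 gene are not reported here.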

Additional observations from a re-analysis of the deposited data

How the results depend on the processing

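No paired analysis was possible because there was 1 library per group and a single list. The authors' own threshold could not be varied, as the list holds no score. Of 61 values recomputed under 14 alternatives, 48 stayed close to the reported value (a count within a factor of 1.5, a share or median within its interval) and 13 moved. Keeping the wider 50% of the lines left 84 regions away from promoters, 55 at tRNA genes, 8 at other small RNA genes, 9 at lncRNA genes, 4 in gene bodies and 8 distal, with a median width of 1551 bp. Fewer lines entered by construction. As the filter was on width, the narrower gene body and distal classes also fell by more than tRNA regions by construction. Merging regions within 1 kb of each other left 18 distal regions and raised the median width to 1203 bp. With 1 TSS per protein-coding gene, gene body regions numbered 38. With a promoter distance of 3 kb, the share of tRNA genes in a region was 26.1%. The AP-1 share was 20% over whole regions, which are longer than the 300-base window in most cases, and the share of unique words was 97.7% with 51-base words in place of 93.5%. When distances were taken from the nearest base of the region, 187 regions stayed away from promoters, 89 of them tRNA regions. No value moved under that setting. Precision is limited by the number of listed regions, most in the class of 16 other small RNA regions.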
